A study of Mus musculus with 2 samples.

Results

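The interferon-inducible GTPases described here are 10 genes, 6 guanylate-binding proteins (Gbp2, Gbp3, Gbp4, Gbp5, Gbp7 and Gbp9) and 4 immunity-related GTPases (Igtp, Irgm1, Irgm2 and Iigp1). They were chosen by gene symbol, and all 10 were found among the 32285 genes counted. They were followed across cell types in 2 droplet single-cell RNA libraries of brain cells from C57BL/6J mice aged 18 months. One library is labelled wild type (WT) and the other is labelled KO, for mice without CD200R1, a receptor that restrains myeloid cells. Per the labels, neither set of mice was treated, the brains were perfused with buffered saline and dissociated with a commercial kit, and cells carrying CD11b, a surface protein of myeloid cells, were taken with magnetic particles. The number of mice behind each library and the cells in which CD200R1 is absent are not stated, and the genotype was not checked here, because a 3′ tag outside a deleted exon checks nothing. No interferon was given, so the label "inducible" is background knowledge and was not tested in these samples.

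Guanylate-binding proteins are large GTPases related to dynamin that assemble on the membranes of bacteria and of vacuoles holding parasites, and several of them promote inflammasome activation. Immunity-related GTPases are smaller proteins that act on the same vacuoles. Iigp1 is an effector that loads onto vacuoles and helps to break them, while Irgm1, Irgm2 and Igtp are regulators that sit on the cell's own membranes and hold the effectors inactive there. Both families are classic targets of interferon gamma, and many members also respond to type I interferon, in myeloid cells as well as in endothelium and astrocytes.

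The promoters of 7 members were matched in a RefSeq table (GRCm38.p6) that gives 250 bases before to 50 bases after each start site. Gbp4, Gbp9 and Iigp1 had no entry. The windows were searched on both strands for the gamma-activated site (GAS), TTCNNNGAA, which reads the same on either strand, and for the core of the interferon-stimulated response element (ISRE) (a pair of GAAA blocks separated by any 2 bases), or its reverse complement. The ISRE core was present in 7 of 7 members, against 3.99% of the 27025 genes in the table. The GAS motif was present in 4 of 7 members (Gbp5, Gbp7, Igtp and Irgm2), against 9.55% of genes, and it overlapped no ISRE core. A match describes letters in a window and does not show that a factor binds there. With the start site counted as 0, the ISRE core began at -30 and -24 in Irgm1, where 2 cores share 4 bases, at -34 in Igtp, -59 in Gbp2, -53 in Gbp7 and -64 in Irgm2. Gbp3 held overlapping cores at -45 and -39 in the first of its 2 windows, and no match in the other. Gbp5 held its core farther away, at -165. Of the windows below, Irgm1 and Gbp2 carry the ISRE core alone, while Igtp and Gbp7 carry the ISRE core and GAS motifs. Capitals mark the matches, and each run reads 5′ to 3′ along the gene. They lie at chr11:48871371-48871670 (minus strand), chr3:142620413-142620712, chr11:58199306-58199605 and chr3:142530086-142530385 (plus strand for the last 3).
Irgm1: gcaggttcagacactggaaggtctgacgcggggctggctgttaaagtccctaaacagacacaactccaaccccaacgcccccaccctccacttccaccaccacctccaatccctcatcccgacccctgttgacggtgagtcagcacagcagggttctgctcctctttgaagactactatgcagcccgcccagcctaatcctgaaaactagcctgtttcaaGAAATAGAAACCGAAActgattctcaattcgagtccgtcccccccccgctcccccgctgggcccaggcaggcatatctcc
Gbp2: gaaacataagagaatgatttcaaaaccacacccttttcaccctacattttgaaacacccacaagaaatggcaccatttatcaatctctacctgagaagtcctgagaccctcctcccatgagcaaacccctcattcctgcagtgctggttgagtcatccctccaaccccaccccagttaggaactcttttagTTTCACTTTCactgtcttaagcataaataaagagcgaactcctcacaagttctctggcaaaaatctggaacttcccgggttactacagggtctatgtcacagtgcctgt
Igtp: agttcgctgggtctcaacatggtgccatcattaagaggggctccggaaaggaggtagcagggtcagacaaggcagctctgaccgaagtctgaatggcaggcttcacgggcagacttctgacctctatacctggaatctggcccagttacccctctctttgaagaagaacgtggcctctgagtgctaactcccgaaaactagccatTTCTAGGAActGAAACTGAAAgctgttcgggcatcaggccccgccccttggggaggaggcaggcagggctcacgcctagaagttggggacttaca
Gbp7: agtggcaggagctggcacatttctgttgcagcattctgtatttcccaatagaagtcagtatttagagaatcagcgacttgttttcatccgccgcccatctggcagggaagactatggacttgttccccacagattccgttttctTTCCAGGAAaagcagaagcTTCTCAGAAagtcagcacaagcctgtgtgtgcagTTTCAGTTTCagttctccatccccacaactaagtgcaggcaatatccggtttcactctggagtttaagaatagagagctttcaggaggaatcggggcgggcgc

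**Figure D1:**
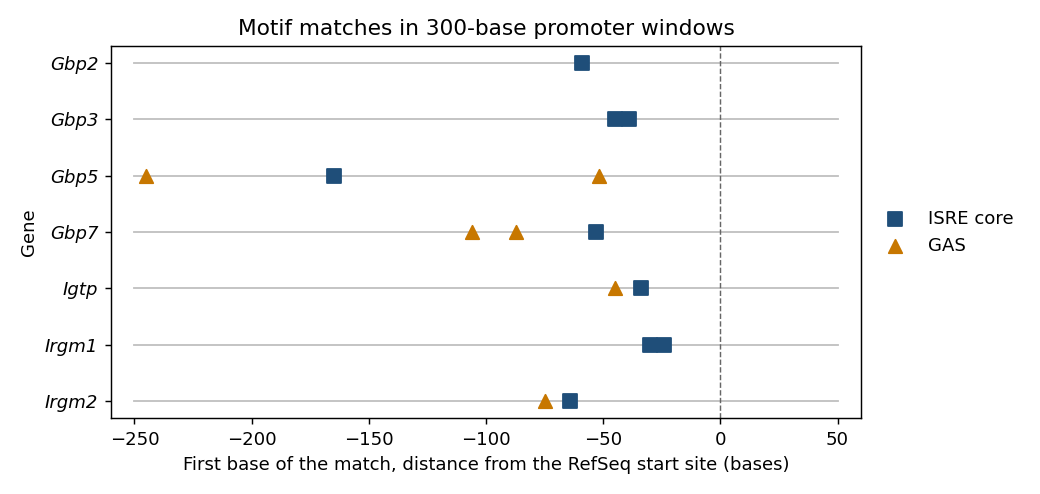
Matches to the ISRE core (squares) and the GAS motif (triangles) in the promoter windows of the 7 members with an entry, by distance in bases from the RefSeq start site (dashed line at 0). All 7 hold an ISRE core, which begins between -64 and -24 in 6 of them and at -165 in Gbp5.

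In GENCODE vM21 (GRCm38), Gbp5 (142493978 to 142522344), Gbp7 (142530342 to 142550149), Gbp3 (142560026 to 142573209) and Gbp2 (142620602 to 142638008) lie in a row on the plus strand of chromosome 3. Gbp9 (105077630 to 105139539) and Gbp4 (105115767 to 105139586) overlap each other and Gbp8 on the minus strand of chromosome 5. Igtp (58199556 to 58207591) and Irgm2 (58199618 to 58222782) overlap on the plus strand of chromosome 11, where Irgm1 (48861968 to 48871683) lies apart on the minus strand. How reads in the overlaps were assigned is not given in the sources used here, so the split of counts between Gbp4 and Gbp9, and between Igtp and Irgm2, is uncertain.

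The libraries labelled WT and KO held 18228 and 19159 barcodes with 127429919 and 131196245 UMIs (molecules counted through their tags), and 103 barcode sequences occurred in both. After filters on cells and doublets, 16357 and 16999 cells remained. Doublet calls removed 1.47% and 3.74% of cells, below the 13.3% and 14.1% expected from loading, so mixed cells remain. Clusters were named "X-like" from marker genes, with the members and other interferon genes left out of the clustering. In all, 13 classes with at least 50 cells per library were compared, and clusters without a name held 27.7% and 23.3% of cells. Levels are UMIs scaled to a class total of 1e6 (CPM), not divided by gene length, so each gene is compared with itself across cells. With 1 library per group there is no replicate check and no test between genotypes, and the 95% intervals below (exact Poisson or conditional binomial) cover counting error only.

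The members were highest in endothelial-like cells, the lining of blood vessels, in both libraries. Summed over the 10 genes, endothelial-like cells of the WT library had 642 CPM (633 to 651). In the KO library the sum was 1286 CPM (1271 to 1301), and the next class, fibroblast-like cells, had 526 CPM. In that KO class endothelial markers summed to 4157 CPM and its own fibroblast markers to 2336 CPM, so its rank is not that of fibroblasts alone. Next in the WT library were T cell-like cells at 325 CPM and ependymal-like cells at 302 CPM, which did not differ beyond their counting intervals. CNS-associated macrophage-like cells (268 CPM) and fibroblast-like cells (261 CPM) followed, again with overlapping intervals. Microglia-like cells, the largest class of the selection, had 162 CPM (158 to 166), ninth of 13. The lowest class was choroid plexus-like cells with 64.5 CPM in the WT library and 127 CPM in the KO library. By single gene, endothelial-like cells ranked first for 10 of 10 members in the KO library. They ranked first for 8 of 10 in the WT library, where Gbp4 was as high in T cell-like cells (39.1 CPM, 29.5 to 50.7) as in endothelial-like cells (37.6 CPM, 35.4 to 39.8) within counting error. Irgm1 stood at 55.1 CPM in olfactory ensheathing-like cells of the WT library, from 18 UMIs (32.6 to 87.0), and overlapped the endothelial 51.2 CPM. Over all kept cells, 9 of 10 members were higher in the KO library (all but Gbp4), where 1.26% of 20433 genes were, and none was lower, where 1.38% were, but such totals also follow the share of each class. Gbp5 separated the endothelium most clearly in the KO library, at 8.02 times its median class.

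**Figure D2:**
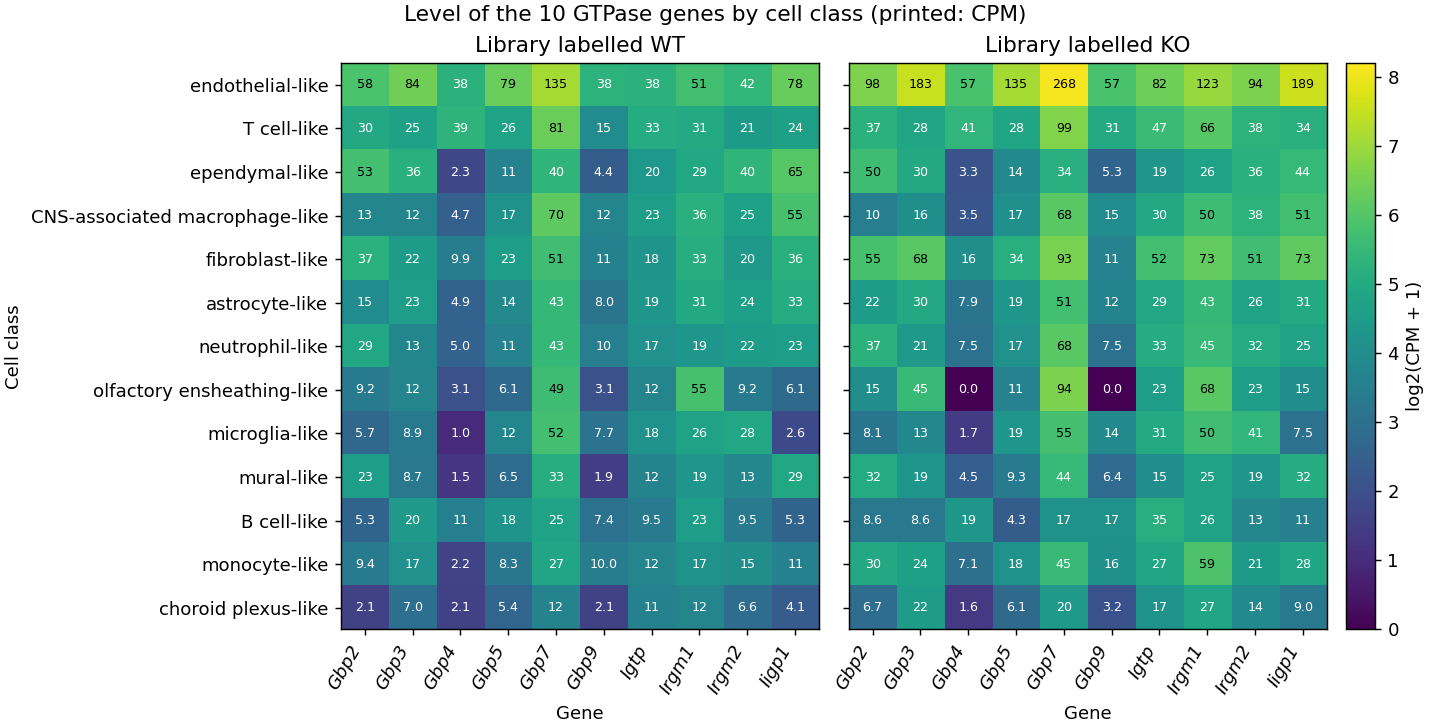
Level of each member (columns, CPM printed in the cells, colour on a log2(CPM + 1) scale) by cell class in the libraries labelled WT (left) and KO (right). The endothelial-like row is the brightest in both, from 37.6 to 135 CPM in the WT library and from 56.6 to 268 CPM in the KO library.

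In endothelial-like cells (3184 WT and 2881 KO) all 10 members were higher in the KO library. Members are called higher or lower here at a log2 ratio of at least 0.32 either way on the CPM + 10 scale, with at least 20 UMIs over both libraries. By that rule 10 of 10 members were higher, where 1.42% of 15233 genes were, and none was lower, where 1.15% of genes were. The median log2 ratio of the members was 0.94, beside 0.01 over all genes measured. The effector Iigp1 stood at 78.0 CPM (2279 UMIs) in the WT library and 189 CPM (4271 UMIs) in the KO library, a ratio of 2.43 (2.31 to 2.55). Irgm1, the regulator best known for its role in autophagy and control of intracellular bacteria, stood at 51.2 and 123 CPM, a ratio of 2.40 (2.25 to 2.55). Of the other regulators, Irgm2 had 42.4 and 94.3 CPM and Igtp 37.7 and 82.1 CPM. Among the guanylate-binding proteins, Gbp3 went with these, at 83.9 and 183 CPM, a ratio of 2.18 (2.07 to 2.29). Gbp7 had 135 and 268 CPM, and Gbp5, which promotes NLRP3 inflammasome assembly, 79.3 and 135 CPM. Gbp2, which helps to open bacterial vacuoles, had 58.2 and 98.0 CPM. The overlapping pair Gbp4 (37.6 and 56.6 CPM) and Gbp9 (38.4 and 56.9 CPM) had the smallest ratios, 1.51 (1.39 to 1.63) and 1.48 (1.37 to 1.60). The ratios thus ran from 1.48 to 2.43, a spread wider than any one interval. The class markers were alike in both libraries, at 21956 and 21768 CPM summed over 11 endothelial markers.

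The difference was found along the vessel tree. Cluster 11, with the most capillary markers, had 624 and 1233 CPM summed over the members, a ratio of 1.97 (1.92 to 2.03). Cluster 12, with arterial markers, had 699 and 1436 CPM, a ratio of 2.05 (1.98 to 2.13). Cluster 9, with the most venous markers (2263 CPM) but also capillary markers (2829 CPM), had 620 and 1291 CPM, a ratio of 2.08 (2.02 to 2.15). Cluster 15, arterial in its markers and low in UMIs, had 516 and 860 CPM, a ratio of 1.67 (1.37 to 2.04). Among the larger 3 clusters, Iigp1 had its largest ratio in arterial cluster 12, at 67.9 and 195 CPM (2.87, 2.58 to 3.20), against 2.28 (2.11 to 2.47) in capillary cluster 11. Gbp3 had its largest in cluster 9, with venous and capillary markers, at 70.7 and 172 CPM (2.43, 2.21 to 2.68).

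The endothelial UMIs were spread over many cells. After each cell was thinned to 1000 UMIs, which left 3041 and 2781 endothelial-like cells, 41.8% (40.0 to 43.5) of cells in the WT library and 67.2% (65.5 to 69.0) in the KO library held at least 1 member UMI (exact Clopper-Pearson intervals). Without thinning the shares were 85.3% and 93.4%. Cells with UMIs of 3 or more members made up 2.66% and 9.28% at the thinned depth. The share with Gbp7 was 11.8% and 21.4%, with Gbp3 7.93% and 16.0%, and with Iigp1 6.38% and 14.2%. The 10 cells richest in member UMIs held 2.82% and 2.62% of the endothelial total, and without them the ratio was 2.01 (1.97 to 2.05). Choroid plexus-like cells, the lowest class, gave 7.80% (5.21 to 11.2) and 13.5% (10.6 to 16.7) at the same thinned depth. Their median depths before thinning were 1693 and 2368.5 UMIs, against 6350.5 and 5085 UMIs in endothelial-like cells. The choroid plexus share, as the lowest, is taken as a background level for free RNA in the droplets. Its own markers made up 294006 and 337976 CPM of that class, which leaves fewer of the 1000 UMIs for other RNA. The level in other classes was not measured, so a share above this background is not shown to exceed free RNA. In the WT library the shares of neutrophil-like (8.47%), monocyte-like (10.6%), mural-like (11.5%) and B cell-like cells (14.3%) overlapped the choroid plexus share within their intervals. In the KO library those of mural-like (15.5%), ependymal-like (16.6%), B cell-like (16.9%) and astrocyte-like cells (18.6%) did. These shares were not separated from the background level, and the counts given for these classes further on are to be read with that limit.

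**Figure D3:**
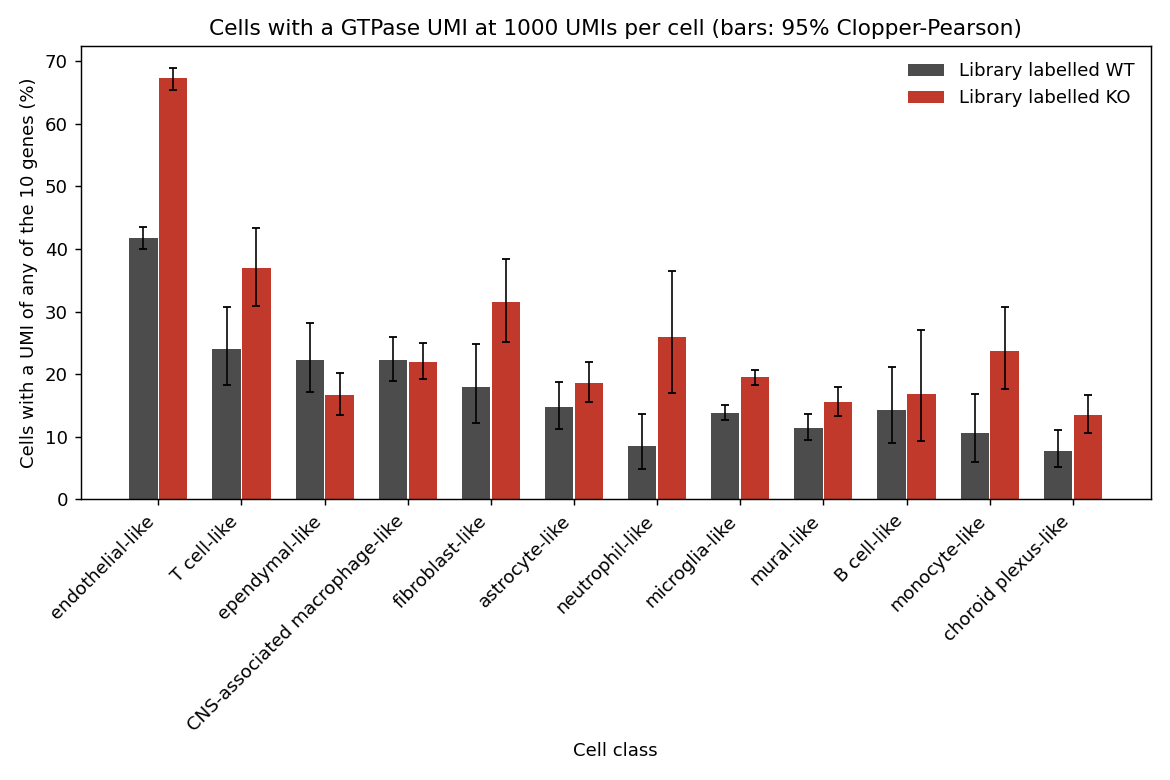
Share of cells with at least 1 UMI of any of the 10 members after thinning to 1000 UMIs per cell, by class, in the libraries labelled WT (grey) and KO (red), with 95% Clopper-Pearson bars. Endothelial-like cells are at 41.8% and 67.2%, CNS-associated macrophage-like cells at 22.2% and 21.97%. Olfactory ensheathing-like cells are not shown, as fewer than 50 cells of the KO library reached that depth.

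Microglia-like cells (3681 and 4244), the resident macrophages of the brain tissue, had higher levels of 6 of 10 members in the KO library, where 1.08% of 16098 genes were higher. None was lower, where 1.23% of genes were. The members' median log2 ratio was 0.38, beside 0.00 over all genes measured. Irgm1 had 25.6 CPM (1003 UMIs) in the WT library and 50.3 CPM (2106 UMIs) in the KO library, a ratio of 1.97 (1.82 to 2.12). Igtp had 17.5 and 31.4 CPM, a ratio of 1.79 (1.63 to 1.96), and Irgm2 28.4 and 41.0 CPM, a ratio of 1.44 (1.34 to 1.56). All 3 regulators were thus above 1 by more than their counting error. Iigp1 was scarce, at 2.61 and 7.53 CPM, a ratio of 2.89 (2.31 to 3.65). Its 315 UMIs in the KO library included 72 from a single cell. Without the 10 cells of each library richest in member UMIs its log2 ratio was 0.29 in place of 0.48, below the mark of 0.32, and 4 of 10 members were higher. Gbp9 had 7.66 and 13.9 CPM and Gbp5 12.5 and 18.6 CPM, and both were called higher. Gbp7, in contrast, had 52.2 CPM (2045 UMIs) and 54.5 CPM (2280 UMIs), a ratio of 1.04 (0.983 to 1.11). Gbp2 (5.67 and 8.13 CPM), Gbp3 (8.91 and 13.3 CPM) and Gbp4 (0.996 and 1.70 CPM) had CPM ratios from 1.43 to 1.70, but did not reach the mark on the CPM + 10 scale, which understates differences of low genes. With 1 CPM added in place of 10, 9 of 10 members were higher, and with 50 CPM 1 was. The share of all genes past the mark is given for the main setting only. Counts under other settings, here and below, thus have no such share to be read against.

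Microglia-like cells fell in 2 clusters, and Gbp7 was near 1 in both. Cluster 4, led by homeostatic genes such as P2ry12, had a Gbp7 ratio of 1.06 (0.964 to 1.16). Cluster 6, led by Cd83, Ccl4, Ccl3 and immediate early genes, had 1.03 (0.955 to 1.12). Summed over the members, cluster 4 had 179 and 237 CPM (1.33, 1.26 to 1.39) and cluster 6 had 151 and 243 CPM (1.61, 1.54 to 1.67). Gbp2 had a ratio of 0.988 (0.744 to 1.31) in cluster 4 and 1.80 (1.44 to 2.26) in cluster 6, and Gbp5 had 1.12 (0.926 to 1.37) and 1.74 (1.5 to 2.01). Irgm1 was higher in the KO library in both, at ratios of 1.84 (1.64 to 2.07) and 2.06 (1.87 to 2.28). At 1000 UMIs per cell, 13.9% and 19.5% of microglia-like cells held a member UMI. The background share, that of choroid plexus-like cells, was also higher in the KO library, and their summed level was 64.5 and 127 CPM. The part of this background in the microglial difference was not tested. Endothelial markers summed to 197 and 200.3 CPM in microglia-like cells, about level between libraries. Choroid plexus markers, mostly the abundant transcript Ttr, summed to 1975 and 3001 CPM, and their part in the member values was not tested.

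CNS-associated macrophage-like cells (572 and 854), the macrophages of the meninges and of the spaces around vessels, differed less. Higher in the KO library were 2 of 10 members, where 2.20% of 13162 genes were higher, and none was lower, where 4.19% were. The members' median log2 ratio was 0.06, beside 0.00 over all genes measured. Irgm1 had 36.2 and 49.7 CPM, a ratio of 1.37 (1.17 to 1.61), and Irgm2 had 24.9 and 38.5 CPM, a ratio of 1.55 (1.28 to 1.87). For Irgm2 the log2 ratio of 0.47 became -0.05 when cells were thinned to 1000 UMIs. Igtp had 23.4 and 30.2 CPM, a ratio of 1.29 (1.06 to 1.58) that stayed under the mark once 10 CPM were added. The guanylate-binding proteins had intervals that included 1: Gbp7 had 70.2 and 68.1 CPM, Gbp5 17.1 and 16.5 CPM, and Gbp2 12.5 and 10.4 CPM. Iigp1 had 54.9 and 51.1 CPM, but its UMIs were concentrated in few cells. The 10 cells richest in Iigp1 held 58.2% of its UMIs in the WT library and 46.3% in the KO library, where 1 cell alone had 103 UMIs. Without the 10 cells of each library richest in member UMIs, Iigp1 had 25.8 and 32.5 CPM, and the summed ratio was 1.24 (1.16 to 1.32) in place of 1.11 (1.05 to 1.18). The class's own markers summed to 3873 and 3026 CPM, less than its microglial markers, so its values are not those of such macrophages alone. Microglial markers in this class summed to 9136 and 11327 CPM, against 16639 and 16938 CPM in microglia-like cells, and choroid plexus markers to 1858 and 3222 CPM. The part of these 2 lists in the member values was not tested. Endothelial markers summed to 590 and 299 CPM, and without the cells that held UMIs of 2 or more of them 4 of 10 members were higher in place of 2. That filter left 281 of 572 and 487 of 854 cells. It drops deep cells more readily, here and in the classes below, so depth and endothelial RNA were not separated.

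**Figure D4:**
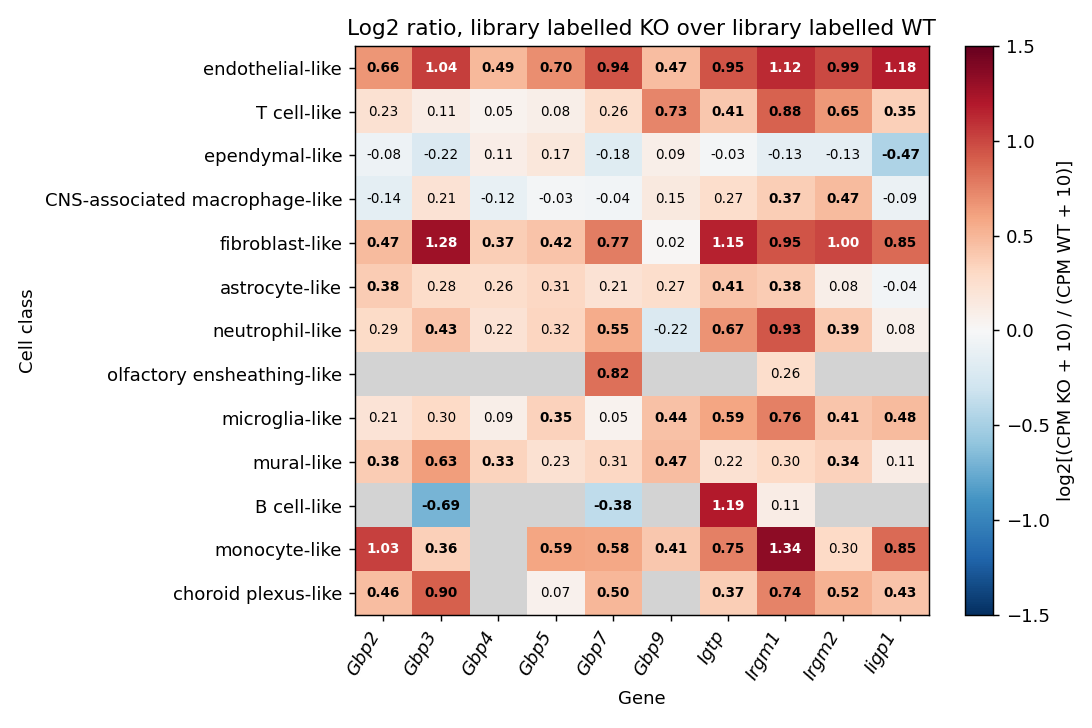
Log2 ratio of each member in the library labelled KO over the library labelled WT, with 10 CPM added to both, by cell class. Bold values are past 0.32 either way, grey cells have fewer than 20 UMIs over both libraries. Endothelial-like cells run from 0.47 (Gbp9) to 1.18 (Iigp1), and ependymal-like cells hold the lowest value with over 100 UMIs in each library, -0.47 for Iigp1.

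T cell-like cells (199 and 245) had 5 of 10 members higher in the KO library, in a class where 18.1% of 9813 genes were higher, and none lower, where 11.4% were. The small number of cells widened every interval. Irgm1 had 31.4 CPM (45 UMIs) and 66.4 CPM (88 UMIs), a ratio of 2.12 (1.46 to 3.1), and Irgm2 had 20.9 and 38.5 CPM, a ratio of 1.84 (1.15 to 2.99). Gbp9 had 14.7 and 30.9 CPM, from 21 and 41 UMIs. Igtp (32.8 and 46.8 CPM) and Iigp1 (24.4 and 34.0 CPM) were past the fold, with counting intervals that included 1. Gbp4, highest in this class and in the endothelium, was at 39.1 and 40.8 CPM, a ratio of 1.04 (0.704 to 1.54). In this class the summed endothelial markers stood at 2490 and 1687 CPM. Without cells holding UMIs of 2 or more of these markers, the summed member ratio was 1.57 (1.24 to 1.98) in place of 1.38 (1.22 to 1.56). Monocyte markers summed to 1544 and 1005 CPM, and markers of natural killer cells to 497 and 442 CPM. Other lists were higher in the KO library: microglial markers (1892 and 3488 CPM), CNS-associated macrophage markers (57.2 and 186 CPM) and choroid plexus markers (3066 and 5534 CPM). The part of these lists in the member values was not tested.

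Fibroblast-like, monocyte-like and choroid plexus-like cells had most members higher in the KO library when all cells and UMIs were counted. In fibroblast-like cells, 9 of 10 were higher where 9.50% of genes were, and in monocyte-like cells 8 of 9 measured were higher where 10.4% were. In choroid plexus-like cells 7 of 8 measured were higher where 4.40% were. Their share of cells with a member UMI was itself taken as the background level. Their member UMIs are thus not shown to come from choroid plexus cells. None of the members was lower in these 3 classes, where 10.9%, 12.5% and 10.4% of genes were lower. Gbp3 had 22.2 CPM (36 UMIs) and 68.0 CPM (174 UMIs) in fibroblast-like cells, a ratio of 3.07 (2.13 to 4.52). Irgm1 had 17.1 CPM (31 UMIs) and 58.6 CPM (107 UMIs) in monocyte-like cells, a ratio of 3.42 (2.27 to 5.27). Both differences exceed their counting error, in classes of 235 and 302 and of 148 and 179 cells. In fibroblast-like cells, however, endothelial markers (4327 and 4157 CPM) summed to more than the class's own markers (3891 and 2336 CPM). In monocyte-like cells microglial markers (4742 and 5198 CPM) summed to more than the class's own. Those monocyte markers also differed between libraries, at 2662 and 4901 CPM, and the part of either list in the member values was not tested. Most of these calls ended under the alternatives, in part because few members kept 20 UMIs. Thinned to 1000 UMIs per cell, 1 of 2 measured was higher in fibroblast-like cells and 1 of 1 in choroid plexus-like cells, and none was measured in monocyte-like cells. The summed ratios at that depth were 1.73 (1.15 to 2.64), 2.00 (1.28 to 3.22) and 2.83 (1.57 to 5.41) in the same order. Without cells holding endothelial markers, 1 of 1 measured was higher in fibroblast-like, 3 of 5 in choroid plexus-like and 2 of 3 in monocyte-like cells. In neutrophil-like cells 5 of 10 members were higher where 13.3% of genes were, and 0 were lower where 27.4% were. Mural-like cells, the pericytes and smooth muscle of vessels, had 5 of 10 higher where 4.10% were, and 0 lower where 3.58% were. Endothelial markers in mural-like cells summed to 814 and 1202 CPM. Without cells holding 2 or more of them, 2 of 7 measured members were higher, and the summed ratio was 1.32 (1.12 to 1.56) in place of 1.41 (1.28 to 1.55). Astrocyte-like cells had 3 of 10 higher where 9.57% were, and 0 lower where 9.33% were. Their Iigp1 was at 32.7 and 31.4 CPM. In olfactory ensheathing-like cells, Gbp7 was higher and Irgm1 was within the fold, and the other 8 members had under 20 UMIs (29.3% of genes were higher and 20.9% lower). B cell-like cells (143 and 77) had only 4 members measured. Igtp was higher with 9 and 16 UMIs, where 18.3% of genes were higher, and Gbp3 (19 and 4 UMIs) and Gbp7 (24 and 8 UMIs) were lower, where 27.7% were, with intervals for the lower 2 that included 1. Endothelial markers in B cell-like cells summed to 1295 and 341 CPM, and their part in these values was not tested, because only 69 and 42 cells lacked 2 or more of them.

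Ependymal-like cells (368 and 890), the ciliated lining of the ventricles, did not have the members higher in the KO library. None was higher, where 4.60% of genes were, and 1 was lower, where 4.74% were. That gene was Iigp1, at 64.8 CPM (222 UMIs) and 44.2 CPM (243 UMIs), a ratio of 0.681 (0.565 to 0.821). Gbp2 had 53.2 and 49.8 CPM, and Irgm2 had 40.3 and 36.0 CPM, with intervals that included 1. In the WT library 53.2% of all member UMIs of the class came from 10 cells, and 1 cell held 198 of 1034 UMIs. The corresponding share in the KO library was 32.8%. Without those 10 cells in each library the sums were 165 and 188 CPM, a ratio of 1.14 (1.02 to 1.27) in place of 0.866 (0.799 to 0.939), and Iigp1 had 24.9 and 22.7 CPM. The direction of the sum thus turned without those cells. Thinned to 1000 UMIs per cell, the summed ratio was 0.669 (0.493 to 0.911), and all 4 members with 20 UMIs left were lower. Choroid plexus markers in this class summed to 2762 and 6308 CPM and erythroid markers to 29.5 and 765 CPM, and their part in the member values was not tested.

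**Figure D5:**
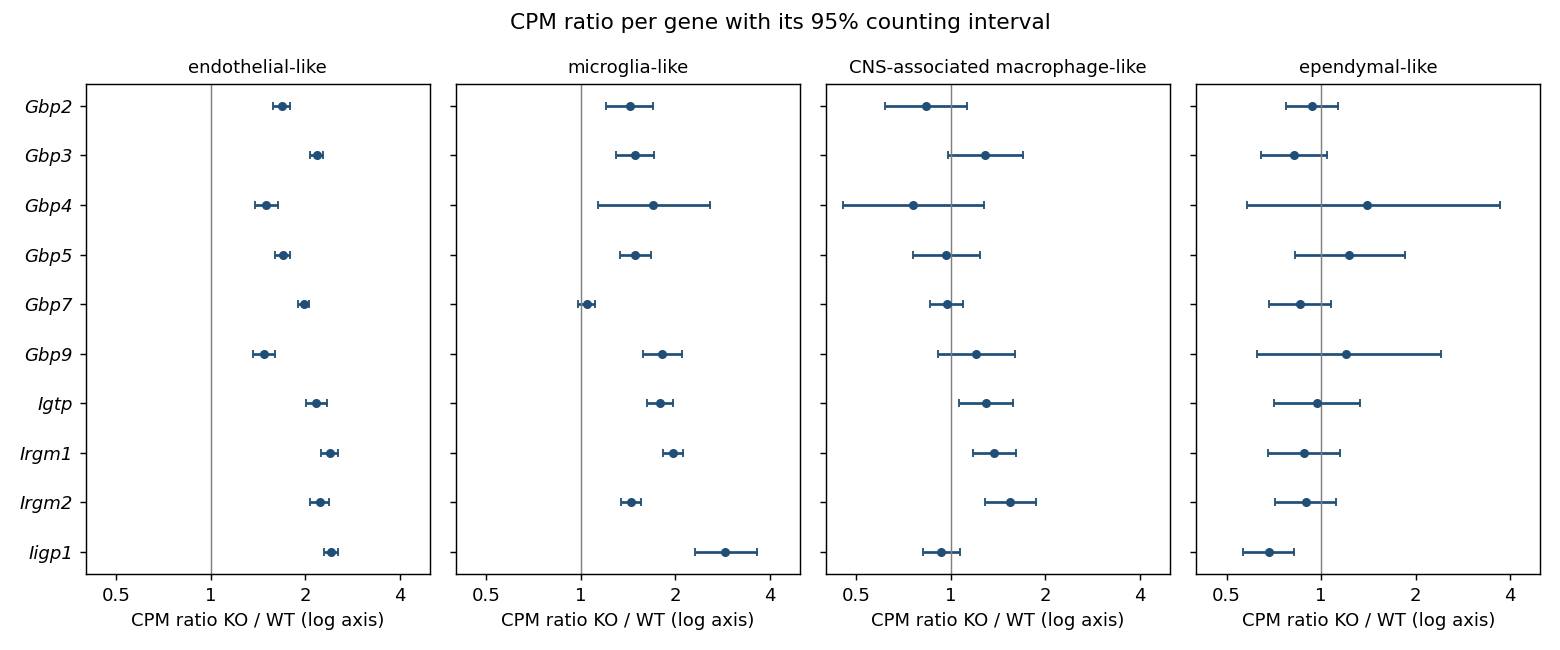
CPM ratio of each member, library labelled KO over library labelled WT, on a log axis, with its 95% counting interval, in 4 classes. The vertical line marks 1. All 10 intervals lie above it in endothelial-like cells, 9 of 10 in microglia-like cells (not Gbp7), 3 of 10 in CNS-associated macrophage-like cells (Igtp, Irgm1 and Irgm2), and Iigp1 lies below it in ependymal-like cells.

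Markers of endothelial cells were found in every other class, so the values were also taken without cells holding UMIs of 2 or more such markers. In fibroblast-like cells those markers summed to 4327 and 4157 CPM, in astrocyte-like cells to 2124 and 2617 CPM, and in monocyte-like cells to 1263 and 1217 CPM. Without the marked cells the summed member ratio was 1.22 (0.809 to 1.86) in fibroblast-like cells in place of 2.02 (1.81 to 2.26). In the WT library 106 of 235 fibroblast-like cells were left, but 41 of 423 member UMIs, at 218 in place of 261 CPM. The cells left were thus shallower, and this filter cannot separate endothelial RNA from depth. In astrocyte-like cells the summed ratio was 1.00 (0.850 to 1.19) in place of 1.27 (1.15 to 1.41). Without the 10 astrocyte-like cells of each library richest in member UMIs, which held 50.2% and 20.7% of these UMIs, it was 1.93 (1.68 to 2.21), so the 2 alternatives moved it in opposite directions. Microglia-like cells had 1.40 (1.34 to 1.47) in place of 1.48 (1.44 to 1.53), with 6 of 10 members higher in both cases. CNS-associated macrophage-like cells had 1.35 (1.22 to 1.51) and ependymal-like cells 1.02 (0.880 to 1.18). Monocyte-like cells had 1.71 (1.24 to 2.38). Neutrophil-like cells had 3.85 (2.74 to 5.50) in place of 1.52 (1.32 to 1.76), from only 47 and 129 UMIs in 90 and 55 cells. Neutrophil markers in that class, with all cells counted, summed to 85149 and 129719 CPM. Its share in the WT library was not separated from the background level.

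On the CPM + 10 scale, which understates differences of low genes, the 4 immunity-related GTPases had higher ratios than the 6 guanylate-binding proteins in several classes. In endothelial-like cells their median log2 ratios were 1.05 and 0.68, in microglia-like cells 0.53 and 0.25, in CNS-associated macrophage-like cells 0.32 and -0.03, and in T cell-like cells 0.53 and 0.17. The order was the other way round in mural-like cells (0.26 and 0.35), astrocyte-like cells (0.23 and 0.27), olfactory ensheathing-like cells (0.26 and 0.82, with 1 member of each family measured) and ependymal-like cells (-0.13 and 0.00), and the medians were both 0.48 in choroid plexus-like cells. The part of the members' levels in these family medians was not tested. Across the 26 combinations of class and library, the levels of every pair of members were positively correlated, with Pearson's r from 0.45 (Gbp4 and Irgm2) to 0.85 (Gbp5 and Gbp7) on the log2(CPM + 10) scale. These points share 2 libraries and the endothelial high, so r is a description. The genes outside the member list with the pattern most like the members' mean, of 15369 compared over the same 26 points, were Tnfsf10 (r = 0.90), Apol10b (0.88), Tgtp2 (0.87), Ret (0.85) and B630019A10Rik (0.85). By Spearman's rho Tnfsf10 ranked 5th and Tgtp2 10th, and the other 3 ranked 58th or lower.

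Relatives of the members were read in the same way. Of other immunity-related and very large inducible GTPases, 7 of 8 measured were higher in endothelial-like cells, 3 of 9 in microglia-like cells and 3 of 8 in CNS-associated macrophage-like cells, and none was lower. Of all genes, 1.42%, 1.08% and 2.20% were higher in these classes, in that order, and 1.15%, 1.23% and 4.19% were lower. Gm4951, a close relative of Iigp1, had 28.1 and 65.6 CPM in microglia-like cells and 24.8 and 69.9 CPM in endothelial-like cells. In ependymal-like cells it had 67.5 and 43.3 CPM, lower in the KO library like Iigp1. Irgc1, a family member expressed mainly in testis, had 3.24 and 2.96 CPM in microglia-like cells. Tgtp1 was scarce there, at 0.281 and 0.430 CPM. Gbp6 and Gbp8 were the only other guanylate-binding proteins with 20 UMIs in microglia-like cells, at 0.715 and 1.98 CPM and at 5.52 and 9.32 CPM. Of 9 atlastins, mitofusins and dynamins, relatives without known interferon induction, none was higher or lower in microglia-like or endothelial-like cells. In microglia-like cells Dnm1 had a log2 ratio of 0.11 and Atl2 -0.17. Of the 2 Mx genes listed, 0 were found by symbol among the genes counted, so they could not be analysed here.

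Among the interferon ligands listed, interferon gamma (Ifng) was found in T cell-like cells, at 80.2 CPM (115 UMIs) and 89.1 CPM (118 UMIs), a ratio of 1.11 (0.851 to 1.45). That class also held markers of natural killer cells, and which of its cells held the Ifng UMIs was not tested. Interferon beta (Ifnb1) had 5 UMIs in microglia-like cells of the WT library and 68 in those of the KO library, or 0.128 and 1.63 CPM, a ratio of 12.7 (5.20 to 40.5). These UMIs lay in 2 and 9 cells, 52 of the 68 in a single cell, and by the rule on CPM + 10 the gene was not called higher (log2 ratio 0.20). The other ligands listed, Ifna1, Ifna2, Ifna4, Ifnk, Ifne, Ifnl2 and Ifnl3, had under 20 UMIs in every class compared. Among the receptor and signalling genes, Stat2 (22.8 and 51.5 CPM) was higher in microglia-like cells, while the receptor subunit Ifngr1 had 449 and 391 CPM and Stat3 169 and 154 CPM. Stat2 was also higher in endothelial-like cells, at 48.3 and 124 CPM. Of 7 interferon regulatory factors, Irf7 (7.94 and 28.7 CPM) and Irf9 (29.6 and 66.0 CPM) were higher in microglia-like cells, Irf5 had 161 and 160 CPM, and Irf2 310 and 263 CPM. Usp18, which blocks signalling from the type I receptor, had 9.53 and 35.0 CPM and was the only one of 7 feedback inhibitors called higher there, while Ptpn2 had 40.6 and 50.2 CPM, Ptpn6 143 and 142 CPM and Pias1 207 and 201 CPM.

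Other targets were split by the interferon they are best known for, although the lists overlap in their responses. Of the type I targets, 19 of 22 measured were higher in microglia-like cells, 21 of 21 in endothelial-like cells and 20 of 22 in CNS-associated macrophage-like cells, with median log2 ratios of 1.15, 1.16 and 0.78. The top 2 genes of that list in microglia-like cells were Rtp4 (20.6 and 130.2 CPM) and Ifi27l2a (123 and 581 CPM), and the lowest was Oas3 (0.741 and 1.82 CPM). Of the interferon gamma targets, 8 of 15, 8 of 16 and 4 of 15 were higher in those classes, with medians of 0.36, 0.35 and 0.15. For both lists, the share of all genes higher was 1.08%, 1.42% and 2.20% in the same order of classes. Nlrc5, the activator of MHC class I genes, had 12.4 and 29.6 CPM in microglia-like cells and 28.4 and 41.5 CPM in CNS-associated macrophage-like cells. Ciita, the activator of MHC class II genes, had 0.511 and 0.383 CPM in microglia-like cells. The members' own medians were 0.38, 0.94 and 0.06 in the same 3 classes. In ependymal-like cells 3 of 21 type I targets were higher and 4 lower, with a median of 0.16, where 4.60% of all genes were higher and 4.74% lower. Of genes that work with the members, none of 12 in the ATG8 conjugation list was higher in microglia-like or endothelial-like cells, and Sqstm1 was lower in microglia-like cells (264 and 207 CPM). Of 8 inflammasome genes none was higher in these 2 classes, and Il1b was lower in microglia-like cells, where 1.23% of all genes were, at 53.7 and 28.2 CPM. Casp1 had 34.8 and 41.1 CPM and Casp4, the receptor for bacterial lipopolysaccharide in the cytosol, 55.9 and 64.4 CPM.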

How the data were processed

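Gene expression in CD11b-selected brain cells was measured with 10x Chromium 3′ v3.1 in 2 samples, 1 labelled WT and 1 labelled KO, which gave the groups. The values deposited by the authors are raw UMI counts for each gene in each barcode. Per the submitters' processing notes, the tools were Cell Ranger 7.0.1 with STAR and Seurat 3.1.1, and the build was GRCm38/mm10. The annotation release is not given in the sources used here.

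Barcodes under 300 genes or 500 UMIs, or over 10% mitochondrial UMIs, were dropped. Doublets were called with Scrublet (scanpy 1.11.5) per library and removed. Both libraries were clustered together on 2000 variable genes, 30 principal components, 15 neighbours and Leiden resolution 1, without 211 genes (the members, their families, interferon lists) and without mitochondrial and sex-linked genes or Cd200r1. A cluster took a name from 3 or more markers that were found in 25% of its cells and raised by a log2 fold of 1 or more, and stayed unnamed where a second class also had 3 or more such markers, as a share of its own list at least 0.5 of the first class's share. Counts were summed per class and library. Ratios are log2 of CPM + 10, or plain CPM ratios with 95% exact conditional binomial intervals. The script was tested on simulated data. Named genes are all members, up to 2 at each end of each list in microglia-like cells, the single end of a list elsewhere, the interferon ligands and the 5 genes most like the members. Nlrc5 in macrophage-like cells was named after its values were seen. The values of 1 gene that this rule names are not reported here. Alternatives changed the cell filter, clustering, depth, scaling, pseudocount, fold and UMI minimum, and 3 were added after seeing the data. The members and lists were chosen with earlier results of these data known. No test between genotypes was run, and protein sequences were not used here. PCR duplicates are removed by UMIs, but intervals cover counting error only.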

Additional observations from a re-analysis of the deposited data

Results flagged for a closer look

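In 3 cases a member was past the mark of 0.32 on the log2 scale in opposite directions in 2 classes of the library labelled KO, and the difference between the classes was not tested. Gbp3 was lower in B cell-like cells (log2 ratio -0.69, 19 and 4 UMIs) and higher in fibroblast-like cells (1.28). Gbp7 was lower in B cell-like cells (-0.38, 24 and 8 UMIs) and higher in endothelial-like cells (0.94). Both B cell-like ratios had counting intervals that included 1, and endothelial markers in B cell-like cells summed to 1295 and 341 CPM. Iigp1 was lower in ependymal-like cells (-0.47) and higher in endothelial-like cells (1.18), and its ependymal value was -0.09 without the 10 cells of each library richest in member UMIs.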

How the results depend on the processing

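No paired analysis was possible because each group has 1 library. The count of members past the fold was recomputed in 350 combinations of class, direction and setting, and it moved by over 1.5 times in 73, given here. The share of all genes past the fold is not given for these settings, so the counts only show how the calls depend on the setting. With cells thinned to 1000 UMIs, members higher numbered 0 in B cell-like cells, 1 in CNS-associated macrophage-like cells, 2 in T cell-like cells, 1 in choroid plexus-like cells, 1 in fibroblast-like cells, 0 in monocyte-like cells, 0 in neutrophil-like cells, and members lower numbered 0 in B cell-like cells, 1 in CNS-associated macrophage-like cells, 4 in ependymal-like cells, 1 in fibroblast-like cells. At a fold of 1.5, members higher numbered 0 in CNS-associated macrophage-like cells, 3 in T cell-like cells, 0 in astrocyte-like cells, 2 in choroid plexus-like cells, 2 in microglia-like cells, 5 in monocyte-like cells, 1 in mural-like cells, 2 in neutrophil-like cells, and members lower numbered 1 in B cell-like cells, 0 in ependymal-like cells. With interferon genes kept in the clustering, members higher numbered 1 in CNS-associated macrophage-like cells. With a minimum of 50 UMIs, members higher numbered 0 in B cell-like cells, 3 in mural-like cells, 0 in olfactory ensheathing-like cells, and members lower numbered 0 in B cell-like cells. Without a cell filter, members higher numbered 9 in mural-like cells, 7 in olfactory ensheathing-like cells. Without a UMI minimum, members higher numbered 4 in B cell-like cells, 7 in olfactory ensheathing-like cells, and members lower numbered 2 in olfactory ensheathing-like cells. With a pseudocount of 1 CPM, members higher numbered 4 in CNS-associated macrophage-like cells, 7 in astrocyte-like cells, 1 in ependymal-like cells, 9 in mural-like cells, 8 in neutrophil-like cells, and members lower numbered 1 in neutrophil-like cells. With a pseudocount of 50 CPM, members higher numbered 0 in CNS-associated macrophage-like cells, 2 in T cell-like cells, 0 in astrocyte-like cells, 1 in choroid plexus-like cells, 1 in microglia-like cells, 3 in monocyte-like cells, 0 in mural-like cells, 2 in neutrophil-like cells, and members lower numbered 0 in B cell-like cells, 0 in ependymal-like cells. At resolution 0.5, members higher numbered 1 in CNS-associated macrophage-like cells, 5 in astrocyte-like cells. With the stricter cell filter (1000 UMIs, 500 genes, 5% mitochondrial), members higher numbered 1 in CNS-associated macrophage-like cells, 1 in astrocyte-like cells, 1 in ependymal-like cells, 8 in mural-like cells, and members lower numbered 1 in B cell-like cells, 2 in ependymal-like cells. Without cells holding 2 or more endothelial markers, members higher numbered 4 in CNS-associated macrophage-like cells, 3 in choroid plexus-like cells, 2 in ependymal-like cells, 1 in fibroblast-like cells, 2 in monocyte-like cells, 2 in mural-like cells, 0 in olfactory ensheathing-like cells, and members lower numbered 1 in astrocyte-like cells, 2 in ependymal-like cells. Without clusters of low UMI counts, members higher numbered 5 in astrocyte-like cells. Without the 10 cells richest in member UMIs, members higher numbered 0 in B cell-like cells, 8 in T cell-like cells, 8 in astrocyte-like cells, 8 in mural-like cells, 3 in neutrophil-like cells, 0 in olfactory ensheathing-like cells, and members lower numbered 1 in B cell-like cells, 0 in ependymal-like cells. In endothelial-like cells the higher count was 10 in every alternative run except a fold of 1.5 and a pseudocount of 50 CPM, where it was 8. Of 1090 log2 ratios of single members recomputed, 107 moved beyond their counting interval. Of 468 whose main value was short of the mark 38 changed sign, and of 622 past it 7 did: with cells thinned to 1000 UMIs, Irgm2 in CNS-associated macrophage-like cells (-0.055) and Gbp2 in fibroblast-like cells (-0.78); without clusters of low UMI counts, Gbp5 in fibroblast-like cells (-0.13); without cells holding endothelial markers, Gbp2 in astrocyte-like cells (-0.15), Irgm2 in choroid plexus-like cells (-0.0071) and Iigp1 in monocyte-like cells (-0.15); and without the 10 richest cells, Gbp3 in neutrophil-like cells (-0.14). The cause of these changes was not tested, beyond fewer UMIs or genes being counted under the stricter settings. The endothelial log2 ratio ran from 0.90 to 1.27 for Iigp1 and from 0.27 to 0.55 for Gbp9. Few cells limit B cell-like, olfactory ensheathing-like and neutrophil-like values.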

Other observations

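Clusters without a cell name, low in UMIs or holding markers of 2 classes, had 434 and 893 CPM summed over the members in the libraries labelled WT and KO, a ratio of 2.06 (2.00 to 2.12). This pool mixes 5 clusters whose shares differed: cluster 10, with endothelial and mural markers, had 391 and 687 cells, and clusters 7 and 14, with under 3 markers of any class, had 2079 and 1661 and 1790 and 1465 cells. The ratio also follows that mix. They held 7322 and 14556 member UMIs. Among the members there, Gbp9 had 24.2 and 41.0 CPM and Iigp1 51.9 and 123 CPM. Oligodendrocyte-like cells (28 and 63) and platelet-like cells (297 and 35) did not reach 50 cells in both libraries. In platelet-like cells of the library labelled WT, Igtp had 43 UMIs, or 61.0 CPM, more than in any class compared there.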
